A study of Mus musculus with 6 samples.

Results

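The genes described here are 36 genes of glycolysis and of the response to low oxygen, taken from the 54532 genes of the deposited table by symbol. They are 17 glycolytic enzymes, 4 genes of lactate formation and export, 3 genes of glucose uptake and flux control, 5 oxygen-sensing factors and 7 targets of the hypoxia-inducible factors (HIF) that lie outside metabolism. Aldoa names 2 rows of the table, and the row with 115990 counts was used rather than the row with 49. In all, 35 of the 36 had enough counts to be tested, and Aldoc did not.

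The libraries were made from the RNA of inguinal white fat, a depot under the skin, in mice given a high-fat diet from 8 weeks of age for 15 weeks. The 3 control libraries came from Cdo1flox/flox mice, which carry the floxed allele without its deletion and which the genotype field calls WT. The 3 Cdo1AKO libraries came from mice with Cdo1, the gene of cysteine dioxygenase 1, deleted in adipose tissue. Neither the promoter that drives the deletion nor the floxed exons are stated. Whether each library is its own animal is not stated either, and p-values therefore measure only the spread between these libraries, which may be technical.

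Cells break glucose down to pyruvate by glycolysis, and lactate dehydrogenase turns pyruvate into lactate, which monocarboxylate transporters carry out of the cell. When oxygen is plentiful, the EGLN prolyl hydroxylases mark the HIF alpha subunits, HIF1A and EPAS1, for destruction through the VHL ubiquitin ligase. When oxygen is short, the alpha subunits pair with ARNT and bind DNA at genes for glycolytic enzymes, blood vessel growth and mitophagy. Obese fat is a tissue in which low oxygen has been much discussed. HIF1A is controlled largely at the protein level, which RNA counts do not measure.

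Libraries held 16275184 to 19205804 counts. Cdo1 itself stood at 887, 432 and 631 CPM (counts scaled to library size) in the controls and at 123, 392 and 134 CPM in Cdo1AKO 1 to 3, so the library labelled Cdo1AKO 2 came close to control 2 (log2 fold change -1.59 ± 0.53 SE, adjusted p = 0.416 by edgeR). Control 1 and Cdo1AKO 2 nearly lacked B cell and lymph node transcripts, with a median of 0.0614 and 0.450 CPM over 11 markers, against 51.6 to 98.6 CPM in the other 4 libraries. Whether these libraries are labelled as they should be, or were dissected differently, was not tested, and every count over all Cdo1AKO libraries rests on the labels. The 10 adipocyte markers of the labelled tissue were all present, and none was at 0. Their summed level was 39053 to 55609 CPM in controls, 25354 and 27040 CPM in Cdo1AKO 1 and 3, and 55841 CPM in Cdo1AKO 2. In bulk tissue, fewer cells of a type and less RNA per cell cannot be told apart.

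No gene of the 36 passed the test across all genes (edgeR quasi-likelihood test, Benjamini-Hochberg adjusted p under 0.05). Over all 16623 genes tested 0% passed, and the smallest adjusted p among the members was 0.345. At an unadjusted p under 0.05 there were 7 of 35 members (20.0%, against 10.4% of all tested genes), of which 3 were higher in Cdo1AKO (Hk1, Gapdh and Slc16a1, where 4.66% of all genes were) and 4 lower (Arnt, Egln3, Vegfa and Bnip3, where 5.71% were). In 5 members (14.3%, against 8.87% of all tested genes) every Cdo1AKO library lay above every control library, namely Hk1, Pfkp, Gapdh, Eno1 and Slc16a1. In 4 members (11.4%, against 9.73%) every Cdo1AKO library lay below, namely Arnt, Egln3, Vegfa and Bnip3. The first 5 are enzymes and a transporter of the glycolytic route, and the last 4 are oxygen-sensing factors and HIF targets outside metabolism. Both counts are small, and the share of lower members was close to that of all tested genes. Whether direction went with role was not tested, and the values of Gapdh are uncertain, as given below. DESeq2 also called 0 of 36 members, where it called 1.48% of all genes.

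**Figure D1:**
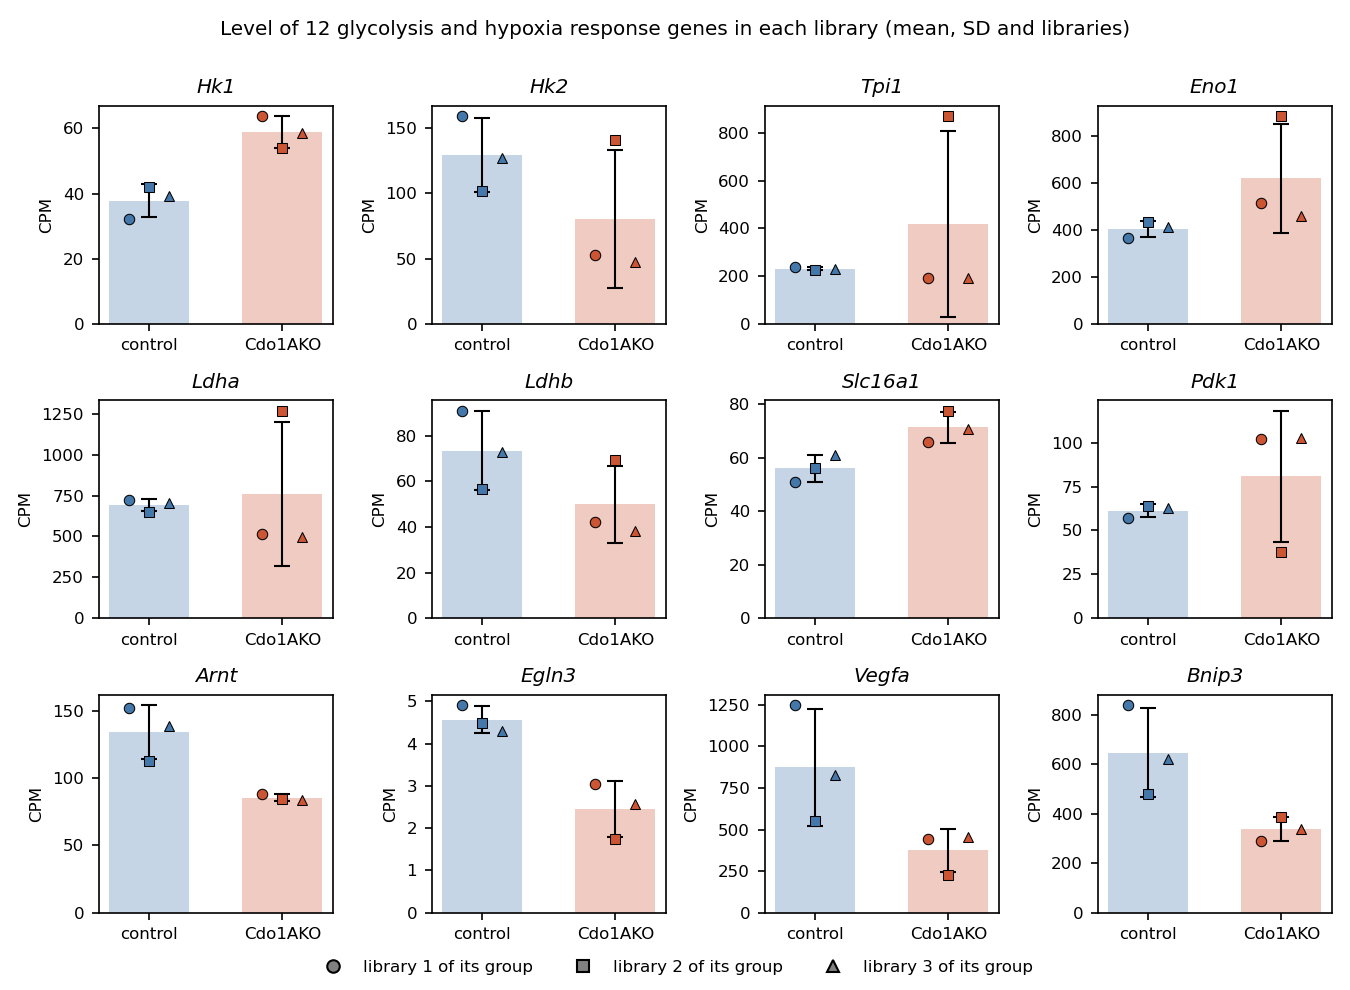
Level in CPM of 12 genes in each library, with bars for the group mean and error bars for the SD over 3 libraries (control in blue, Cdo1AKO in red; circle, square and triangle are library 1, 2 and 3 of a group). Arnt, Egln3, Vegfa and Bnip3 are lower and Hk1, Eno1 and Slc16a1 higher in every Cdo1AKO library, while Cdo1AKO 2 stands apart at 871 CPM for Tpi1 and 1270 CPM for Ldha.

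By role, the medians of the log2 fold changes were 0.21 over 16 glycolytic enzymes, 0.07 over 4 genes of lactate formation and export and 0.12 over 3 genes of uptake and flux control. They were -0.33 over 5 oxygen-sensing factors and -0.03 over 7 HIF targets outside metabolism, beside 0.06 over all tested genes. Of the glycolytic enzymes 14 of 16 had a positive fold change, where 56.0% of all tested genes did. Of the oxygen-sensing factors 4 of 5 had a negative one, where 44.0% of all tested genes did. Without Cdo1AKO 2 the median was -0.07 for the enzymes, -0.10 for lactate genes, 0.09 for uptake and flux control, -0.53 for oxygen-sensing factors and -0.21 for the HIF targets, beside 0.01 over all tested genes. The positive median of the enzymes thus rested on that library, and the negative median of the oxygen-sensing factors did not. Without control 1 the median of the oxygen-sensing factors was -0.18, nearer to that of all tested genes.

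**Figure D2:**
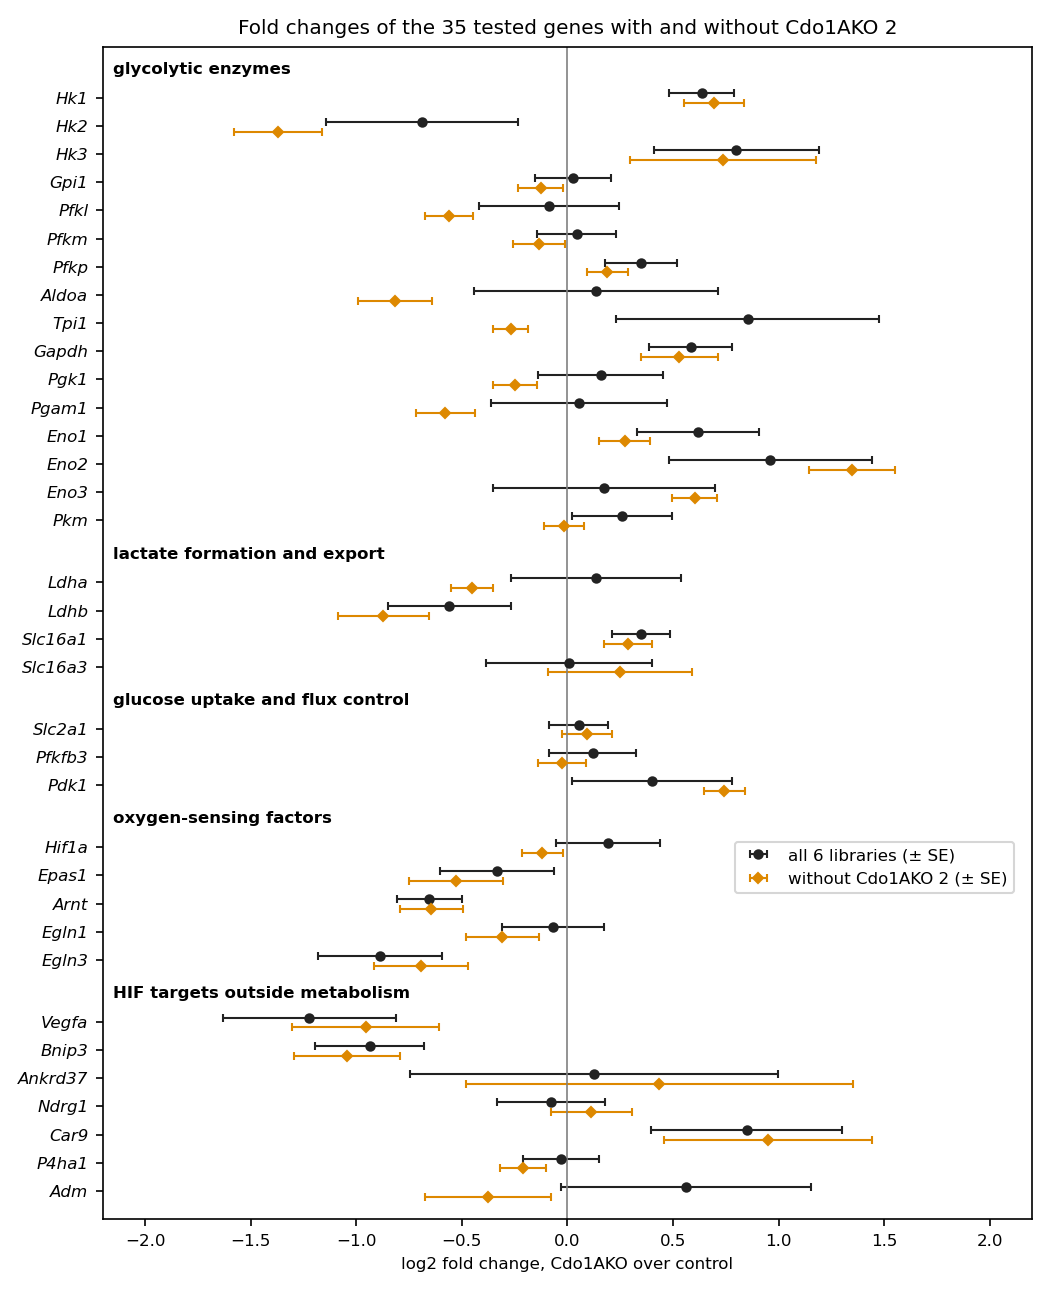
Log2 fold change of Cdo1AKO over control with its SE for the 35 tested genes, by role, from all 6 libraries (black circles) and without Cdo1AKO 2 (orange diamonds). Tpi1 moves from 0.85 to -0.27 and Aldoa from 0.14 to -0.82, while Arnt (-0.65 and -0.65) and Bnip3 (-0.94 and -1.04) stay in place.

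To show the members whose groups did not overlap together with their regulatory sequence, the 250 bases before the start site are printed for the 4 that were lower and for 2 that were higher, from RefSeq on GRCm38.p6, the build also called mm10. Capitals mark ACGTG and GCGTG on either strand, the core letters that HIF binds; matches may overlap, and CACGTG, a motif that other helix-loop-helix factors also bind, holds ACGTG on both strands.
Bnip3, chr7:138909507-138909756, minus strand: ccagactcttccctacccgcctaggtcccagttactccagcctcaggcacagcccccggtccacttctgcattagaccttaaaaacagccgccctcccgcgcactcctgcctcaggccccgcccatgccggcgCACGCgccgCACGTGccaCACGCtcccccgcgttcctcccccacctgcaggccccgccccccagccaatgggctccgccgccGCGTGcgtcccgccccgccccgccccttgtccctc
Vegfa, chr17:46032378-46032627, minus strand: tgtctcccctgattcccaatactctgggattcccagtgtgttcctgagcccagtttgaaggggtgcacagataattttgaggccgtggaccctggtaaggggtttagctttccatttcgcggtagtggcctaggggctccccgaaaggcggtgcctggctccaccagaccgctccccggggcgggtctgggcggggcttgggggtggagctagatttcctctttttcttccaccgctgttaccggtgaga
Egln3, chr12:54203875-54204124, minus strand: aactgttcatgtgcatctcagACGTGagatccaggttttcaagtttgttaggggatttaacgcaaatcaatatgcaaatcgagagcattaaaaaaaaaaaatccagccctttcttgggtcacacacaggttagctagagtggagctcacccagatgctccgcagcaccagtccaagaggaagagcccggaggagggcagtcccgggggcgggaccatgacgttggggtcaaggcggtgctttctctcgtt
Arnt, chr3:95434140-95434389, plus strand: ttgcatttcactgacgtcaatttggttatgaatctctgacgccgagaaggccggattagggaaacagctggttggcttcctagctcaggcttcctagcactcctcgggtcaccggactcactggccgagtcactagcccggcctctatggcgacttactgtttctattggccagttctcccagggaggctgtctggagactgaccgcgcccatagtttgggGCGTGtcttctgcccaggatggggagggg
Slc16a1, chr3:104638414-104638663, plus strand: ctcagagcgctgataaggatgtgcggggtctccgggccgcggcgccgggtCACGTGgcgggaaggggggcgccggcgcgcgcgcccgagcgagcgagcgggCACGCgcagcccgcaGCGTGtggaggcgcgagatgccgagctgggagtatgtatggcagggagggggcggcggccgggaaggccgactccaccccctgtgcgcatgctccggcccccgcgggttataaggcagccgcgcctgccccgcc
Hk1, chr10:62379909-62380158, minus strand: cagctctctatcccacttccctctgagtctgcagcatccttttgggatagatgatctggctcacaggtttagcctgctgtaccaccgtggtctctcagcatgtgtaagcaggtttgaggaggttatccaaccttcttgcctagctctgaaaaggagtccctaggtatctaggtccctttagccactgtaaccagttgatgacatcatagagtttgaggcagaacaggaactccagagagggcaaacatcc
The window of Bnip3 held 5 matches and that of Slc16a1 held 4, Arnt and Egln3 held 1 each, and Vegfa and Hk1 held 0. Of the 36 members 34 matched an entry in the RefSeq table. Some genes had several, with 2 each for Vegfa and Hk1, and only 1 window per gene was read. The start nearest to where the gene begins on its strand in the deposited table was taken. That start lay 6492 bases away for Hif1a, 5857 for Ankrd37 and 4329 for Ldha. Of these windows 27 of 34 (79.4%) held a match, against 38.6% of all 32851 promoter windows of the same length. Their median GC content was 59.2%, against 52.4% over all windows, and both motifs hold a CG. A match occurred in 3 of the 4 windows of lower members, in 4 of the 5 of higher members and in 20 of the 25 others. These matches describe letters and not bound sites.

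The hexokinases trap glucose in the cell as glucose 6-phosphate, and their genes differed in direction. Hk1 (ENSMUSG00000037012, mm10 chromosome 10, 62268855 to 62379908, minus strand), the broadly expressed form, stood at 32.2, 41.9 and 39.3 CPM in the controls and at 63.8, 54.0 and 58.6 CPM in Cdo1AKO 1 to 3. The groups did not overlap, and edgeR gave a log2 fold change of 0.64 ± 0.15 (SE, adjusted p = 0.345) and 0.69 without Cdo1AKO 2. Hk2 (ENSMUSG00000000628, chromosome 6, 82725025 to 82774454, minus strand), the form of insulin-responsive tissues, stood at 159, 102 and 127 CPM in controls and at 52.4, 141 and 47.6 CPM in Cdo1AKO. Cdo1AKO 1 and 3 were well below every control, while Cdo1AKO 2 lay among them, and edgeR gave a log2 fold change of -0.69 ± 0.46 (adjusted p = 0.647) and -1.37 without Cdo1AKO 2 (adjusted p = 0.0758). Hk3, found mainly in myeloid cells, was low, at 2.33, 6.26 and 4.08 CPM in controls and 8.30, 7.98 and 5.82 CPM in Cdo1AKO. Only control 2 lay above the lowest Cdo1AKO library for Hk3. The 12 macrophage markers all had a positive fold change, where 56.0% of all tested genes did. They summed to 632 to 861 CPM in controls and 954 to 1024 CPM in Cdo1AKO. None of them was at 0, and their part in the levels of Hk1 and Hk3 was not tested.

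Per kilobase, Hk2 made up 85.8, 72.1 and 78.9% of hexokinase counts in the controls and 47.4, 73.6 and 48.6% in Cdo1AKO 1 to 3. The mean share was 78.9% ± 6.88 against 56.5% ± 14.8 (SD, n = 3 each). The exact two-sided permutation test gave p = 0.2, adjusted p = 0.7 over 7 shares, and cannot go below 0.1 with 3 against 3. Like Hk2, the sum of the adipocyte markers was lowest in Cdo1AKO 1 and 3, and the part of these markers in this share was not tested.

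The middle steps of glycolysis set Cdo1AKO 2 apart from the other Cdo1AKO libraries. Aldoa, the aldolase of most tissues, stood at 1267, 875 and 1066 CPM in controls, at 612 and 601 CPM in Cdo1AKO 1 and 3 and at 2309 CPM in Cdo1AKO 2. Triosephosphate isomerase, Tpi1, stood at 239, 226 and 229 CPM in controls, 191 and 192 CPM in Cdo1AKO 1 and 3 and 871 CPM in Cdo1AKO 2. Pgk1, phosphoglycerate kinase, stood at 124, 118 and 137 CPM in controls, 104 and 108 CPM in Cdo1AKO 1 and 3 and 210 CPM in Cdo1AKO 2. The same layout, with Cdo1AKO 2 above and Cdo1AKO 1 and 3 below every control, occurred in 8 of 35 members (22.9%, against 10.5% of all tested genes). They were Pfkl, Aldoa, Tpi1, Pgk1, Pgam1, Ldha, Hif1a and P4ha1. The mirror layout occurred in Eno2, Eno3 and Pdk1 (8.57%, against 8.57%). Cdo1AKO 2 was the highest of the 6 libraries in 18 of 35 members (51.4%, against 31.7%) and the lowest in 7 (20.0%, against 24.9%). The log2 fold changes therefore had wide errors, 0.14 ± 0.58 for Aldoa and 0.85 ± 0.62 for Tpi1, and turned to -0.82 and -0.27 without that library. Cdo1AKO 2 also held the highest level of the 10 dissection stress genes, 724 CPM summed against 233 to 306 CPM in the other 5 libraries, and the highest level of 8 blood endothelial markers, 2559 CPM against 1112 to 1621 CPM. The sum of the adipocyte markers, given above, had the same layout as the 8 members, but Cdo1AKO 2 barely exceeded control 1 (55841 against 55609 CPM). Only 3 of these 10 markers were highest in Cdo1AKO 2, beside 31.7% of all tested genes. In every Cdo1AKO library 4 were lower, beside 9.73% of all tested genes. The sum of the 13 mitochondrially encoded mRNAs also had that layout. It was 30621 to 39703 CPM in controls, 21273 and 21988 CPM in Cdo1AKO 1 and 3 and 50491 CPM in Cdo1AKO 2. Of these 13 mRNAs 9 were highest in Cdo1AKO 2, beside 31.7% of all tested genes, and none was at 0. The part of these sets in the members' levels was not tested.

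**Figure D3:**
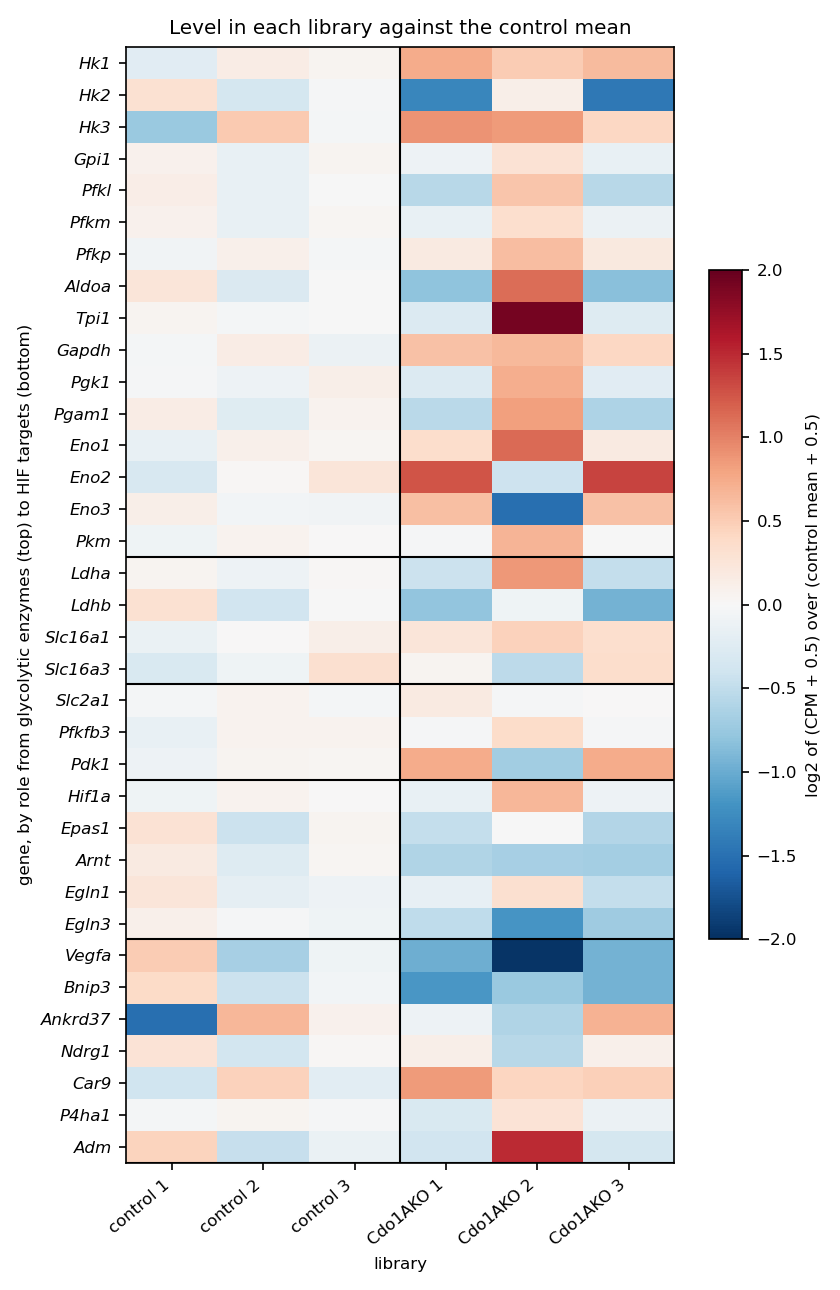
Level of the 35 tested genes in each library as the log2 of (CPM + 0.5) over the control mean + 0.5, with red above and blue below the control mean and lines between roles and groups. Most glycolytic enzymes are red in Cdo1AKO 2 and pale or blue in Cdo1AKO 1 and 3, whereas Arnt, Egln3, Vegfa and Bnip3 are blue in all 3 Cdo1AKO libraries.

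Phosphofructokinase commits sugar to glycolysis. Its liver form Pfkl stood at 153, 126 and 138 CPM in controls and at 94.2, 204 and 94.5 CPM in Cdo1AKO 1 to 3, on either side of the controls. The platelet form Pfkp stood at 93.2, 105 and 94.5 CPM in controls and at 110, 150 and 112 CPM in Cdo1AKO, with no overlap (log2 fold change 0.35 ± 0.17, adjusted p = 0.545 by edgeR). Without Cdo1AKO 2 its log2 fold change was 0.19. The muscle form Pfkm stood at 26.3, 22.3 and 25.5 CPM in controls and at 22.3, 31.4 and 22.6 CPM in Cdo1AKO, and the groups overlapped. Pfkm took 20.8% ± 0.788 of the family per kilobase in controls and 21.5% ± 2.73 in Cdo1AKO (SD, n = 3; exact permutation p = 0.8, adjusted p = 0.9). Gpi1, glucose 6-phosphate isomerase, had a log2 fold change of 0.03 ± 0.18, with 230 to 271 CPM in controls and 230 to 312 CPM in Cdo1AKO. Aldoc, the aldolase of the brain, had 0, 15 and 9 counts in controls and 9, 6 and 20 counts in Cdo1AKO and was not tested, and it made up at most 0.163% of Aldoa and Aldoc per kilobase.

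Enolase makes phosphoenolpyruvate, and its isoforms split. Eno1, the form of most tissues, stood at 363, 431 and 413 CPM in controls and at 514, 883 and 457 CPM in Cdo1AKO, with no overlap (log2 fold change 0.62 ± 0.29, adjusted p = 0.529 by edgeR; 0.27 without Cdo1AKO 2). Eno2, named for neurons, stood at 7.55, 9.74 and 11.5 CPM in controls, 23.5 and 25.4 CPM in Cdo1AKO 1 and 3 and 7.08 CPM in Cdo1AKO 2 (log2 fold change 0.96 ± 0.48, adjusted p = 0.560; 1.35 without Cdo1AKO 2). Eno3, the muscle form, stood at 30.7, 27.2 and 26.8 CPM in controls, 43.0 and 42.6 CPM in Cdo1AKO 1 and 3 and 9.65 CPM in Cdo1AKO 2. Eno2 and Eno3 were thus high where Eno1 was moderate and low where it was highest. Eno3 took 20.4, 16 and 16.3% of enolase counts per kilobase in controls and 19.8, 3.24 and 21.3% in Cdo1AKO 1 to 3 (exact permutation p = 0.9, adjusted p = 0.9). The 12 skeletal muscle markers, of which Myh4 was at 0 in every library and Ckm in 5 of 6, summed to 93.5 to 175 CPM in controls and 151 to 277 CPM in Cdo1AKO, the highest in Cdo1AKO 2, where Eno3 was lowest. The 9 T cell markers summed to 932 and 958 CPM in Cdo1AKO 1 and 3, the libraries high in Eno2 and Eno3, and to 11.6 to 369 CPM elsewhere; their part in these levels was not tested.

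The remaining enzymes of the lower route are Pkm, Pgam1 and Gapdh, of which only Gapdh had groups that did not overlap. Pkm, pyruvate kinase, whose splice forms the gene counts do not separate, stood at 282 to 312 CPM in controls, 293 and 298 CPM in Cdo1AKO 1 and 3 and 481 CPM in Cdo1AKO 2. Its log2 fold change was 0.26 ± 0.24, and -0.02 without Cdo1AKO 2. Pgam1, phosphoglycerate mutase, had 0.05 ± 0.42, and -0.58 without Cdo1AKO 2. Gapdh stood at 5.95, 6.90 and 5.63 CPM in controls and at 9.45, 9.91 and 8.34 CPM in Cdo1AKO, with no overlap (log2 fold change 0.58 ± 0.19, adjusted p = 0.413 by edgeR). Its total of 826 counts over 6 libraries is low for a housekeeping enzyme, and the 5 pseudogenes that the table describes as Gapdh copies hold 2 counts. The treatment of reads that match several copies is not stated, and its values are uncertain. The same caution applies to Ldha, Pgk1, Pgam1, Tpi1, Aldoa, Eno1 and Pkm, which have pseudogenes in the table as well. On the opposite strand, Gapdh, Hk3, Pfkm and Ankrd37 also overlap a gene with more counts than their own (Iffo1, Unc5a, Senp1 and Ufsp2), and no strand setting is given.

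Of the 4 genes of lactate formation and export, Slc16a1 was higher in every Cdo1AKO library, and Ldha and Ldhb were lower than every control in Cdo1AKO 1 and 3 but not in Cdo1AKO 2. Ldha, whose enzyme favours lactate, stood at 723, 649 and 707 CPM in controls, 514 and 499 CPM in Cdo1AKO 1 and 3 and 1270 CPM in Cdo1AKO 2 (log2 fold change 0.13 ± 0.40; -0.45 without Cdo1AKO 2, adjusted p = 0.0942 by edgeR). Ldhb, whose subunit favours the turn of lactate back to pyruvate, stood at 90.9, 56.4 and 73.0 CPM in controls and at 42.1, 69.3 and 38.0 CPM in Cdo1AKO (log2 fold change -0.56 ± 0.29, adjusted p = 0.568; -0.87 without Cdo1AKO 2). As a share of both per kilobase, Ldhb took 21.0, 15.5 and 17.9% in controls and 14.7, 10.3 and 13.9% in Cdo1AKO 1 to 3. Each Cdo1AKO library lay below each control, also Cdo1AKO 2, in which both genes were highest in their group. The mean was 18.1% ± 2.74 against 13.0% ± 2.34 (SD, n = 3), with exact permutation p = 0.1, the smallest that 3 against 3 allow, and adjusted p = 0.7. It was the share in which the groups did not overlap, among 7.

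Slc16a1 encodes MCT1, a transporter that carries lactate both ways. It stood at 50.9, 56.2 and 60.9 CPM in controls and at 65.9, 77.5 and 70.6 CPM in Cdo1AKO, with no overlap (log2 fold change 0.35 ± 0.14, adjusted p = 0.468 by edgeR; 0.29 without Cdo1AKO 2). Slc16a3 encodes MCT4, the exporter of strongly glycolytic cells. It was low, at 1.72, 2.09 and 2.95 CPM in controls and 2.35, 1.42 and 3.02 CPM in Cdo1AKO. It made up 3.20% ± 0.598 and 2.60% ± 0.999 of both transporters per kilobase (SD, n = 3; exact permutation p = 0.5, adjusted p = 0.84). So between Slc16a1 and Slc16a3 most counts per kilobase came from Slc16a1 in both groups. Other lactate transporters were not part of this share.

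**Figure D4:**
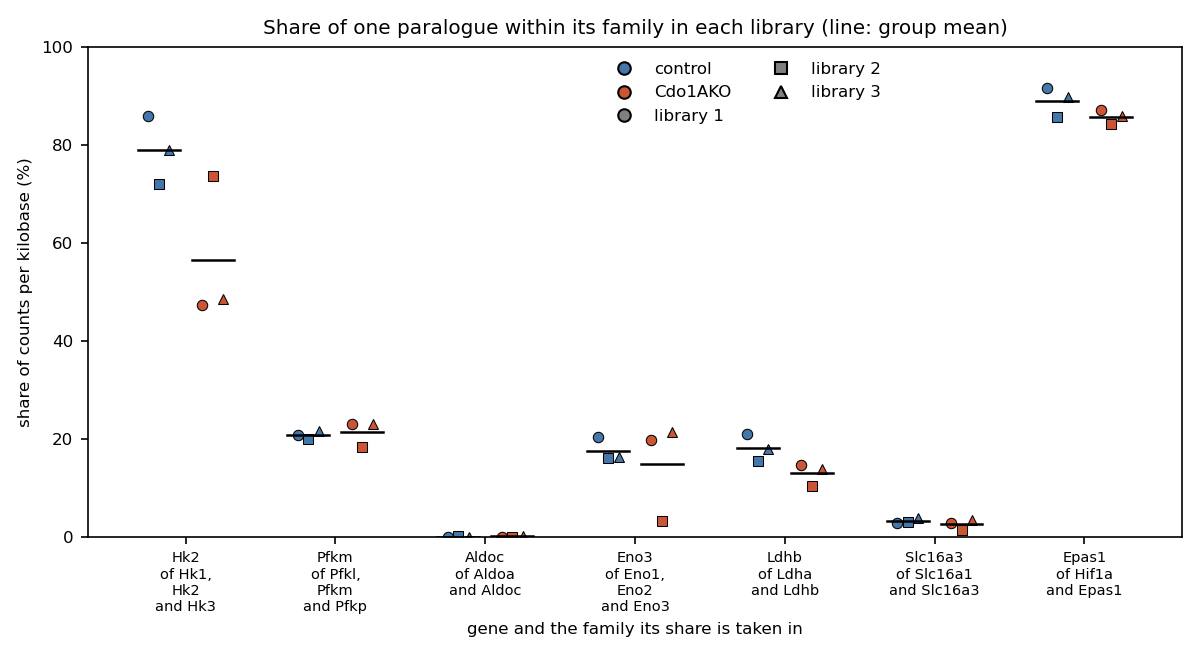
Share in percent of 1 gene in the counts per kilobase of its family, for 7 families, in each library (blue control, red Cdo1AKO; circle, square and triangle are library 1, 2 and 3 of a group; lines are group means). The Hk2 share is lowest in Cdo1AKO 1 and 3 at 47.4 and 48.6%, and the Ldhb share is lower in every Cdo1AKO library than in every control.

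Of the 3 members of glucose uptake and flux control, Slc2a1 and Pfkfb3 overlapped between the groups, and Pdk1 lay on both sides of the controls. Slc2a1, the insulin-independent glucose transporter GLUT1, stood at 21.3, 23.1 and 21.3 CPM in controls and at 24.7, 21.4 and 22.0 CPM in Cdo1AKO (log2 fold change 0.05 ± 0.14, adjusted p = 0.911 by edgeR). Pfkfb3, which makes the activator of phosphofructokinase, stood at 635, 736 and 733 CPM in controls and at 690, 906 and 689 CPM in Cdo1AKO (0.12 ± 0.20). Pdk1, a kinase that shuts pyruvate dehydrogenase and a HIF target, stood at 57.0, 64.0 and 62.8 CPM in controls, 102 and 103 CPM in Cdo1AKO 1 and 3 and 37.6 CPM in Cdo1AKO 2. With edgeR it had 0.40 ± 0.38 (log2, adjusted p = 0.732), and 0.74 without Cdo1AKO 2 (adjusted p = 0.0719).

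Among the oxygen-sensing factors, Arnt and Egln3 were lower in every Cdo1AKO library, and the alpha subunits overlapped. Arnt (ENSMUSG00000015522, chromosome 3, 95434388 to 95497240, plus strand), the partner of both alpha subunits, stood at 152, 113 and 139 CPM in controls and at 88.3, 84.4 and 83.5 CPM in Cdo1AKO. The 3 Cdo1AKO libraries were close together, and the difference was -0.65 ± 0.15 on the log2 scale (adjusted p = 0.345 with edgeR, 0.0914 with DESeq2) and -0.65 without Cdo1AKO 2. Egln3, the hydroxylase that HIF itself induces, stood at 4.91, 4.49 and 4.29 CPM in controls and at 3.05, 1.74 and 2.58 CPM in Cdo1AKO (log2 fold change -0.89 ± 0.29, adjusted p = 0.409 by edgeR; -0.69 without Cdo1AKO 2). Egln1, the main oxygen sensor, stood at 122, 91.4 and 96.5 CPM in controls and at 92.3, 129 and 74.3 CPM in Cdo1AKO (-0.07 ± 0.24).

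Hif1a stood at 74.2, 82.4 and 79.5 CPM in controls, 71.3 and 73.6 CPM in Cdo1AKO 1 and 3 and 125 CPM in Cdo1AKO 2 (log2 fold change 0.19 ± 0.24; -0.12 without Cdo1AKO 2). Epas1, the alpha subunit HIF2A known from endothelium and fat, stood at 734, 445 and 628 CPM in controls and at 432, 600 and 402 CPM in Cdo1AKO (-0.33 ± 0.27, adjusted p = 0.692 by edgeR). Per kilobase Epas1 took 89.0% ± 3.04 of both alpha subunits in controls and 85.7% ± 1.43 in Cdo1AKO (SD, n = 3; exact permutation p = 0.3, adjusted p = 0.7). Epas1 was thus the main alpha subunit message in all 6 libraries.

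Of the 7 HIF targets outside metabolism, Vegfa and Bnip3 were lower in every Cdo1AKO library, and the other 5 overlapped between the groups. Vegfa (ENSMUSG00000023951, chromosome 17, 46016993 to 46032369, minus strand), the main growth factor for blood vessels, stood at 1247, 548 and 826 CPM in controls and at 445, 224 and 455 CPM in Cdo1AKO. No Cdo1AKO library reached the lowest control, control 2, and Cdo1AKO 2 was lowest. The difference was -1.22 ± 0.41 on the log2 scale (adjusted p = 0.416 with edgeR, 0.127 with DESeq2) and -0.96 without Cdo1AKO 2. Bnip3 (ENSMUSG00000078566, chromosome 7, 138890836 to 138909519, minus strand), a mitophagy receptor, stood at 839, 481 and 620 CPM in controls and at 290, 388 and 337 CPM in Cdo1AKO. The difference was -0.94 ± 0.26 on the log2 scale (adjusted p = 0.362 with edgeR, 0.0742 with DESeq2) and -1.04 without Cdo1AKO 2. Vegfa was lowest in Cdo1AKO 2, where the 8 blood endothelial markers summed highest. The sum of the 8 Schwann cell and nerve markers was lower in every Cdo1AKO library, as Vegfa and Bnip3 were. It stood at 103, 60.6 and 76.0 CPM in controls and at 27.7, 42.6 and 28.9 CPM in Cdo1AKO. Of these markers 7 of 8 had a negative fold change, where 44.0% of all tested genes did. In 6 every Cdo1AKO library lay below every control, where 9.73% of all tested genes did so. None was at 0, and DESeq2 called 4, beside 1.48% of all genes. Their part in the levels of Vegfa, Bnip3, Arnt and Egln3 was not tested.

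Adm, the vasodilator peptide adrenomedullin, stood at 17.1, 8.88 and 11.3 CPM in controls, 9.45 and 9.66 CPM in Cdo1AKO 1 and 3 and 36 CPM in Cdo1AKO 2 (log2 fold change 0.56 ± 0.59; -0.38 without Cdo1AKO 2). Ndrg1, a stress-induced gene, stood at 141 to 219 CPM in controls and 123 to 198 CPM in Cdo1AKO (-0.08 ± 0.26). P4ha1, a collagen prolyl hydroxylase subunit, stood at 35.7 to 38.4 CPM in controls and 29.8 to 44.5 CPM in Cdo1AKO (-0.03 ± 0.18). Car9, the carbonic anhydrase often used as a marker of hypoxia in tumours, had 9, 26 and 13 counts in controls and 40, 21 and 26 counts in Cdo1AKO (0.85 ± 0.45, adjusted p = 0.573 by edgeR). Ankrd37 had 3, 48 and 29 counts in controls and 26, 12 and 48 counts in Cdo1AKO, with 3 counts in control 1.

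Levels between genes were set side by side per kilobase of listed gene length, as mean CPM per kilobase in controls (SD, n = 3). Aldoa was highest with 367 ± 67.4, followed by Bnip3 with 285 ± 79.6, Ldha with 209 ± 11.7 and Vegfa with 204 ± 82.1. Epas1 followed with 113 ± 27.5, then Pfkfb3 with 92.8 ± 7.59, Tpi1 with 84.0 ± 2.62 and Eno1 with 74.8 ± 6.57. Of the 35 neighbouring pairs in this order, 21 differed by less than the larger SD of the pair, among them Bnip3 and Ldha, Ldha and Vegfa, and Epas1 and Pfkfb3. Car9, Slc16a3 and Aldoc stood lowest, at 0.382, 0.423 and 0.131. In Cdo1AKO Bnip3 stood at 149 ± 21.6 and Vegfa at 87.4 ± 30.4.

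Other genes of the same pathways, from lists drawn up by function, gave the following counts with edgeR. Of 20 tested other glycolysis genes 0 passed, and 4 were at unadjusted p under 0.05, all lower, where 5.71% of all tested genes were lower at that p. The insulin-responsive transporter Slc2a4 stood at 316, 192 and 255 CPM in controls and 94.4, 169 and 91.4 CPM in Cdo1AKO (log2 fold change -1.10 ± 0.32). Pfkfb1, another form of the enzyme that Pfkfb3 encodes, had -0.86 ± 0.24, and Mlxipl, the glucose-sensing factor ChREBP, -0.84 ± 0.24. Of 17 tested other lactate and pyruvate genes 0 passed with edgeR, and 5 were at unadjusted p under 0.05, 1 higher and 4 lower, where 10.4% of all tested genes were in either direction. DESeq2 called 3 of the list, and 1.48% of all genes. Hcar1, the lactate receptor of fat cells, stood at 92.5, 121 and 120 CPM in controls and at 48.0, 40.9 and 51.6 CPM in Cdo1AKO. All 3 Cdo1AKO libraries lay far below the controls, Cdo1AKO 2 included, and the difference was -1.25 ± 0.17 on the log2 scale (adjusted p = 0.230 with edgeR, 3.64e-05 with DESeq2). Pdk2, the pyruvate dehydrogenase kinase, stood at 300, 118 and 215 CPM in controls and at 82.5, 71.9 and 69.3 CPM in Cdo1AKO (-1.50 ± 0.34, adjusted p = 0.333 by edgeR, 0.00828 by DESeq2). Pdp2, a phosphatase that reverses those kinases, had -0.77 ± 0.16 (adjusted p = 0.309 by edgeR, 0.0417 by DESeq2).

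Of 15 other HIF pathway genes 0 passed with edgeR, and 1 higher and 1 lower were at unadjusted p under 0.05, beside 10.4% of all tested genes. DESeq2 called 1, beside 1.48% of all genes. That was Vhl, the ligase subunit that recognises hydroxylated HIF alpha, at 46.4, 41.8 and 46.4 CPM in controls and 77.8, 72.6 and 76.1 CPM in Cdo1AKO. Its groups lay far apart, with a log2 fold change of 0.75 ± 0.12 (adjusted p = 0.230 by edgeR, 0.00414 by DESeq2). Egln2, the remaining EGLN hydroxylase, had -0.54 ± 0.18 and the ligase scaffold Cul2 -0.36 ± 0.16. Of 37 tested other HIF targets 0 passed, and 1 higher and 3 lower were at unadjusted p under 0.05, a share close to the 10.4% of all tested genes. The 3 with the smallest p are named for completeness. Ak4, a mitochondrial adenylate kinase, had -1.38 ± 0.40, Ier3 -0.81 ± 0.29 and the carbonic anhydrase Car12 2.18 ± 0.80. Over the 37 tested other HIF targets the median log2 fold change was -0.01, beside 0.06 over all tested genes.

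With a term for lymph node transcripts, edgeR called 4.13% of all tested genes (2.26% higher, 1.87% lower), and 2 of 35 members, Hk1 on the higher side (log2 fold change 0.64, adjusted p = 0.0372) and Bnip3 on the lower (-0.91, adjusted p = 0.0452). Arnt had adjusted p = 0.0515 there. Among the genes of the other lists edgeR called 9 with this term. Vhl and Emb were on the higher side and Hcar1, Slc2a4, Mlxipl, Pfkfb1, Pdp2, Pdk2 and Slc16a7 on the lower. By list these were 3 of 20 tested other glycolysis genes, 5 of 17 other lactate and pyruvate genes and 1 of 15 other HIF pathway genes. Of the 37 tested other HIF targets edgeR called 0, beside the 4.13% of all tested genes. Emb, a partner of monocarboxylate transporters, and Slc16a7, the transporter MCT2, are named because they passed here. Emb stood at 44.8 and 47.0 CPM in Cdo1AKO 1 and 3 and at 13.1 CPM in Cdo1AKO 2, against 7.30 to 17.1 CPM in controls. Within the 4 libraries that hold lymph node transcripts it called 15.3% of all genes (7.65% higher, 7.70% lower) and 12 of 36 members, 4 higher (Hk1, Eno2, Eno3 and Pdk1) and 8 lower (Hk2, Pfkl, Aldoa, Pgam1, Ldha, Ldhb, Arnt and Bnip3). That fit leaves out control 1 and Cdo1AKO 2, and in it Vegfa (log2 fold change -0.62, adjusted p = 0.0713 by edgeR, against -1.22 over all libraries) and Egln3 (-0.64, adjusted p = 0.129) did not pass. Without Cdo1AKO 2 alone 0 of 36 members passed, with 16 at unadjusted p under 0.05 (44.4%, against 27.3% of all genes), 5 higher and 11 lower.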

How the data were processed

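RNA from inguinal fat was sequenced in 3 control and 3 Cdo1AKO libraries. The authors deposited 1 table of raw counts per gene and FPKM values, with their own log2 fold changes and p-values, per the file headers. Per the submitters' processing notes the tools were DESeq2 1.20.0, featureCounts 1.5.0-p3 and HISAT2 2.0.5, on mm10; strand setting and treatment of multiply matching reads are not given in the sources used here. The deposited FPKM values entered only an alternative for the family shares.

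Counts were analysed in R 4.3.3 with edgeR 4.0.16 (TMM scaling, filterByExpr, quasi-likelihood test of group, Benjamini-Hochberg adjustment, threshold 0.05), which kept 16623 of 54532 genes. The script was tested on simulated data. CPM use TMM-scaled library sizes. Shares within a family use counts per kilobase and the exact two-sided permutation test. The alternatives were DESeq2 1.42.0 (its own size factors), limma-voom (limma 3.58.1), other filters and scalings, a lymph node term, the 4 libraries with a lymph node marker median above 5 CPM, a replicate block, and leaving out each library. Members and lists were chosen with earlier results of these data known. By rule, values per library are given for 7 fixed genes, the genes of the shares and up to 4 members of each role with the smallest p, and 3 genes are named of each other list.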

Additional observations from a re-analysis of the deposited data

How the results depend on the processing

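With 3 libraries a group, exact tests cannot go below p = 0.1, and lowly counted genes (Aldoc, Ankrd37, Car9) are limited by depth. Of 35 tested members, 16 kept one direction in all 15 alternatives. The number of genes called was 271 with DESeq2, 686 with the lymph node term and 2617 within the 4 libraries with lymph node transcripts; members called were 2 and 12 in the latter settings. Within those 4 libraries the median log2 fold change was -0.074 for glycolytic enzymes and -0.17 for lactate genes, whose range on leaving out each library was -0.10 to 0.20. Signs turned there for Gpi1 (-0.088), Pfkm (-0.094), Aldoa (-0.68), Tpi1 (-0.25), Pgk1 (-0.27), Pgam1 (-0.51), Pkm (-0.061), Ldha (-0.43), Pfkfb3 (-0.10), Hif1a (-0.16), Ankrd37 (-0.080), Ndrg1 (0.27) and Adm (-0.084). With the lymph node term they turned for Aldoa (-0.17), Pgam1 (-0.11), Eno3 (-0.047), Ldha (-0.016) and Slc16a3 (-0.019), and with limma-voom for Aldoa (-0.14), Pgam1 (-0.084), Eno3 (-0.075) and Slc16a3 (-0.012). Same-numbered libraries had correlations of deviations of -0.66, -0.66 and 0.42, and control 1 with Cdo1AKO 2 had 0.70. The correlations were positive between libraries alike in lymph node transcripts and negative between the others. They therefore cannot show whether the numbers pair libraries. With the replicate block edgeR called 0 genes (909 at unadjusted p under 0.05). Signs turned there for Aldoa (-0.19), Pgam1 (-0.12), Eno3 (-0.082), Ldha (-0.019) and Slc16a3 (-0.021). The Pfkm share difference was -0.154 percentage points without length scaling. Leaving out each library gave log2 fold changes of -0.13 to 0.11 for Gpi1, -0.56 to 0.10 for Pfkl, -0.13 to 0.13 for Pfkm, -0.82 to 0.45 for Aldoa, -0.27 to 1.2 for Tpi1, -0.25 to 0.33 for Pgk1, -0.58 to 0.30 for Pgam1, -0.11 to 0.60 for Eno3, -0.016 to 0.38 for Pkm, -0.45 to 0.37 for Ldha, -0.25 to 0.25 for Slc16a3, -0.013 to 0.093 for Slc2a1, -0.025 to 0.19 for Pfkfb3, -0.12 to 0.34 for Hif1a, -0.31 to 0.10 for Egln1, -0.47 to 0.83 for Ankrd37, -0.24 to 0.11 for Ndrg1, -0.21 to 0.090 for P4ha1 and -0.38 to 0.88 for Adm. Share differences ranged from -0.104 to 2.29 percentage points for Pfkm, -0.000509 to 0.0733 for Aldoc and -6.05 to 3.0 for Eno3. The cause of these changes was not tested.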
